A study of Drosophila melanogaster with 3 samples.

Results

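MicroRNA genes encode short hairpin transcripts, and the sites bound by the tagged homeodomain protein Empty spiracles (Ems) were described around 260 of them. The members were all annotated *Drosophila melanogaster* genes whose symbol begins with mir-, bantam (*mir-ban*) and *let-7* (*mir-let7*) included. The annotation held 262 such genes, of which 260 were among the 18164 genes of all kinds on the 6 chromosome arms. The other 2, *mir-10404-1* and *mir-10404-2*, lie on the ribosomal DNA scaffold, which is not among the 6 arms, and were not analysed here. The members were set by name and not by any measured value.

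The data were chromatin immunoprecipitation sequencing (ChIP-seq) peak lists from 3 biological replicates of 1 group. Each replicate came from whole embryos of both sexes aged 0 to 24 h, of the strain 16T-GFP, which carries a stable transgene for Ems with GFP fused at its C-terminal end. The experiment description names an antibody against GFP, while another field of the labels gives ems. With 1 group there was no comparison between conditions and no test. Whole embryos pool all tissues and stages, so that no peak can be assigned to a cell type. Peaks were ranked by the authors' signal value, with 1 as the highest, in the optimal list of 3866 reproducible peaks and in each replicate's list. A peak was called matched in a replicate when at least 1 bp of it overlapped one of that replicate's 3866 highest peaks.

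A microRNA is cut in 2 steps from a longer primary transcript, first to a hairpin by Drosha in the nucleus and then to a short duplex by Dicer. One strand, loaded into an Argonaute protein, pairs with messenger RNAs mainly through its seed, bases 2 to 8, and lowers their translation and stability. Many microRNA genes lie in clusters that share 1 primary transcript, and many lie in introns of protein-coding hosts. An annotated microRNA gene is the hairpin alone, and the start of its primary transcript can be far upstream. A member was therefore called when a peak summit lay from 5 kb upstream to 1 kb downstream of its hairpin.

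Mature sequences of members that the results turn on are printed 5′ to 3′ from RefSeq, on the Release 6 assembly, with the seed in capitals. All 260 members had a mature sequence there. The first sequences belong to some of the members with a summit in reach that share a seed with another member, and each pair with the same seed comes from 1 locus.
mir-279-3p: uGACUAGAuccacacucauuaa
mir-996-3p: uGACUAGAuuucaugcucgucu
mir-92a-3p: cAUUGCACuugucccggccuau
mir-92b-3p: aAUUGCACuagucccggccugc
mir-2a-1-3p: uAUCACAGccagcuuugaugagc
mir-2b-2-3p: uAUCACAGccagcuuugaggagc
Next come *mir-9a*, which had a summit, and *mir-9b* and *mir-9c*, which share its seed and had none.
mir-9a-5p: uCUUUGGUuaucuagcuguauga
mir-9b-5p: uCUUUGGUgauuuuagcuguaug
mir-9c-5p: uCUUUGGUauucuagcuguaga
The last are members known for roles in growth, lipid metabolism and ageing, each with a summit in reach.
mir-ban-3p: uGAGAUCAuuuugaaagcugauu
mir-33-5p: gUGCAUUGuagucgcauuguc
mir-277-3p: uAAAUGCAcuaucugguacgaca
mir-34-5p: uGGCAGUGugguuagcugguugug

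Of 260 members, 62 had a summit in reach, or 23.8%. The replicates' own 3866 highest peaks gave 63, 61 and 58 members, or 23.3% ± 0.968 (SD, n = 3). Over all annotated genes the same window held a summit for 34.3%. That window includes the gene body, which is short for a hairpin, and a window of 1 length set on the gene start gave 29.0% of all genes and the same 23.8% of microRNA genes. In that second window the share was 31.4% for protein-coding genes, 20.2% for other non-coding RNA genes, 16.9% for tRNA genes and 48.0% for snoRNA genes. The snoRNA share varied more between lists, at 62.1%, 55.8% and 48.3% in replicates 1, 2 and 3. In that window the share of microRNA genes lay below that of all genes and above that of other non-coding RNA genes in the optimal list and in each replicate's list. The order against other non-coding RNA genes depended on the window. With the gene body included, those genes stood at 22.9%, near the 23.8% of microRNA genes. In replicate 3 their share of 22.5% was above the 22.3% of microRNA genes.

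**Figure D1:**
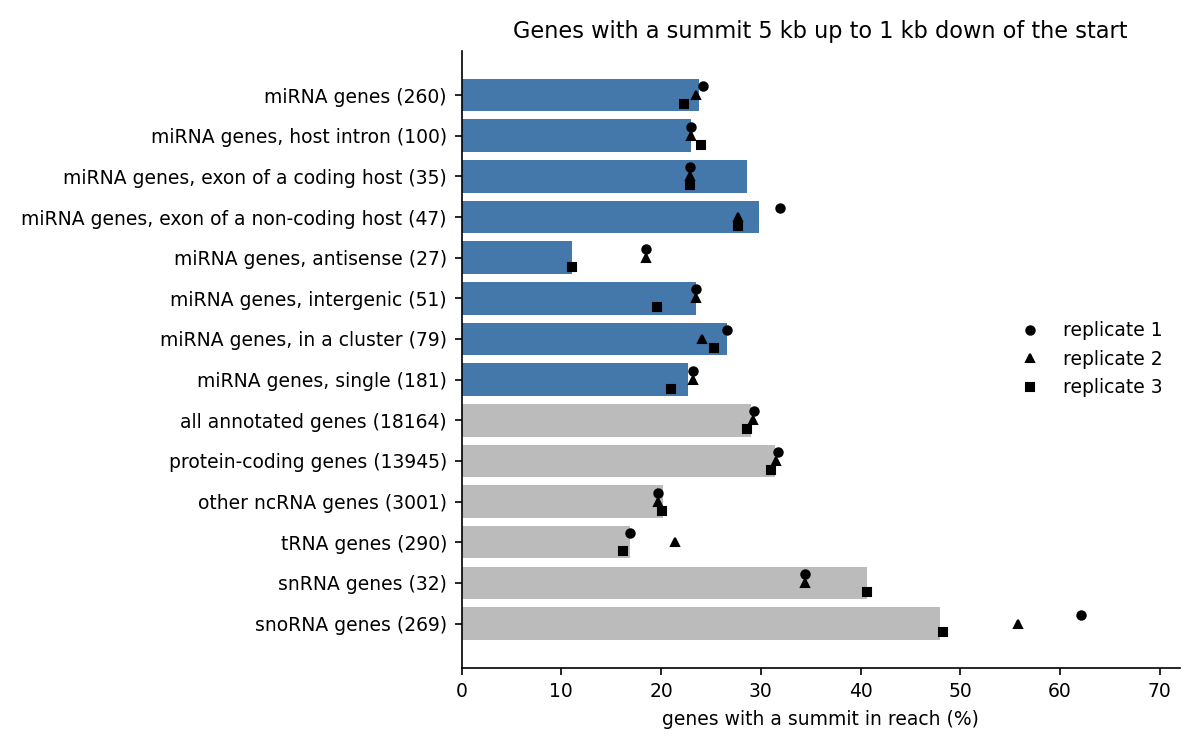
Bars give the percentage of genes with a summit from 5 kb upstream to 1 kb downstream of the gene start in the optimal list, for microRNA genes (blue) and other genes (grey), with the number of genes in parentheses. Symbols give the same percentage in the 3866 highest peaks of each replicate, and the microRNA symbols lie between 22.3% and 24.2%, below the 28.6% to 29.3% of all genes.

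The difference from all genes was larger with reaches up to 2 kb upstream than with longer ones. With a reach of 500 bp upstream and 1 kb downstream, 13 of 260 members had a summit, against 15.9% of all genes. At 2 kb upstream the shares were 9.62% and 20.7%. At 10 kb they were 37.7% and 39.5%, and at 15 kb both were 47.3%. The median distance from a member to its nearest summit was 9202 bp, against 8834 bp for all genes.

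**Figure D2:**
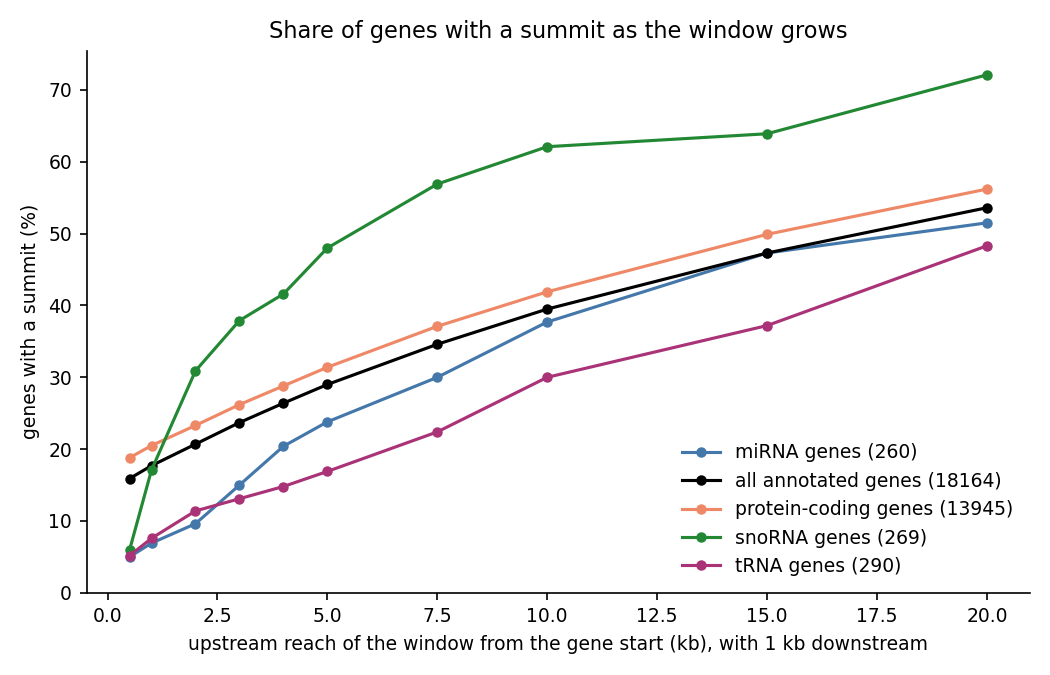
The percentage of genes with a summit is plotted against the upstream reach of the window in kb, for 5 kinds of gene. The microRNA curve starts near the tRNA curve and meets the curve of all genes at 15 kb.

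By their place relative to other genes, 100 members lay in an intron of a gene on the same strand, and 23 of these were called (23.0%; 23.3% ± 0.577 over the 3 replicate lists). Of 47 members in an exon of a non-coding host, 14 were called (29.8%; 29.1% ± 2.46). Of 35 in an exon of a coding host, 10 were called (28.6%; 22.9% in each replicate list). Of 27 members antisense to another gene, 3 were called (11.1%; 16.0% ± 4.28, from 5, 5 and 3 members), and 12 of 51 intergenic members (23.5%; 22.2% ± 2.26). Except for the antisense members, the classes spanned 23.0% to 29.8% in the optimal list. Neighbouring hairpins share windows, so that members of a class are not independent. The uncalled cluster that begins with *mir-959* alone gives 6 of the antisense members.

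Joining neighbours on the same strand that lay up to 10 kb apart gave 203 loci, of which 22 were clusters with 79 members and 181 were single genes. A summit was in reach of 7 clusters (31.8%) and 41 single genes (22.7%). In each of those 7 clusters every member was called, so that 21 called members stood for 7 loci. The highest peak was matched in all 3 replicates at 35 of the 48 called loci, the 7 clusters among them. Of the 62 called members, 48 were called in every replicate's own list.

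The 62 members were reached by 65 summits. None lay in a hairpin, 58 lay upstream and 7 downstream. A peak interval overlapped part of a hairpin only at *mir-2491* (rank 2304, matched in 2 replicates) and *mir-9378* (rank 2538, matched in 1). Only 14 summits lay within 1 kb upstream, as many as lay 4 to 5 kb upstream. Their ranks ran from 23 to 3788 with a median of 1860, near the midpoint of the list at 1933.5. All 3 replicates matched 44 of these summits (67.7%), against 2499 of the 3866 optimal peaks (64.6%).

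The start that each summit lay at was assigned after the summits had been seen. Within 1 kb, 8 summits lay at a start of a non-coding host, 23 at a start of a coding host and 16 at a start of a coding gene that was not a host. None of these starts was within 1 kb of the other 18. By the highest summit of each called locus, the numbers were 6, 18, 11 and 13. A summit within 500 bp of a protein-coding start accounted for 32 of the 65 summits (49.2%), against 54.7% of all optimal peaks.

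**Figure D3:**
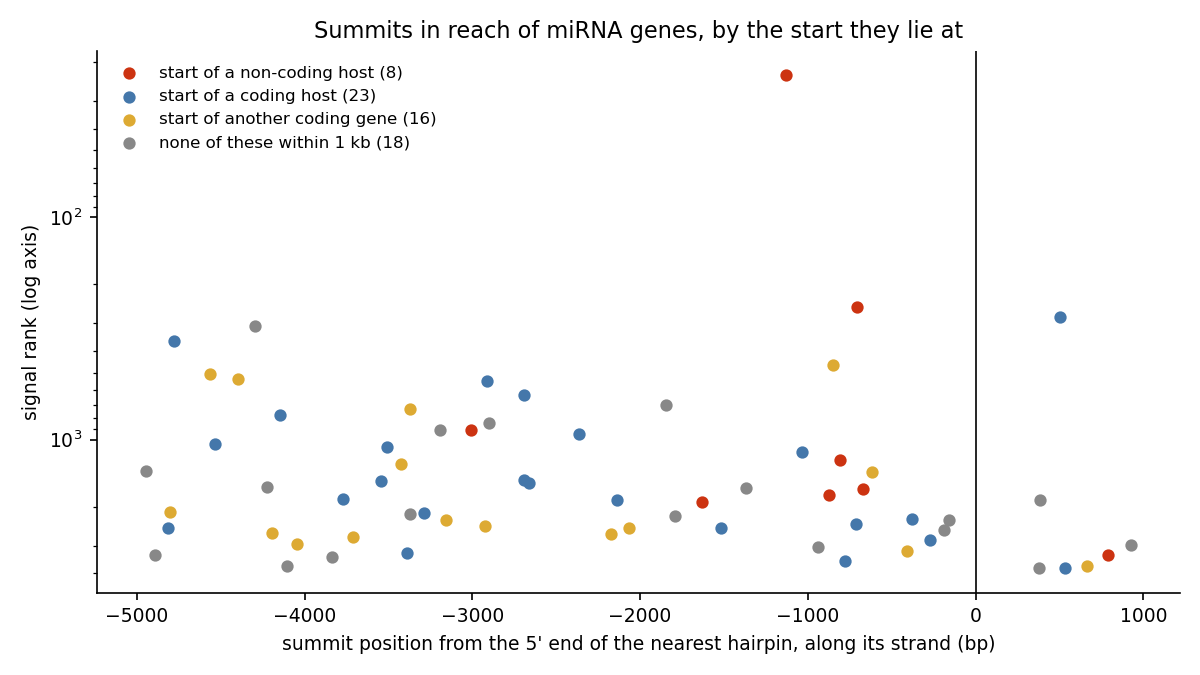
Each point is 1 of the 65 summits, placed by its distance in bp from the 5′ end of the nearest hairpin (negative is upstream) and by signal rank on a log axis, and coloured by the start within 1 kb. The points spread over the whole 5 kb upstream, and the highest, at rank 23, is at a start of a non-coding host.

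The sequence within 100 bp of the summit is shown for loci described below, on the plus strand of Release 6 (dm6), read from RefSeq. Capitals mark any match to TAATTA, a core sequence of homeodomain proteins, or to ACACTG, on either strand, and the first 3 windows, at the highest-ranked loci, hold neither.
mir-279 summit, chr3R:29214354-29214554: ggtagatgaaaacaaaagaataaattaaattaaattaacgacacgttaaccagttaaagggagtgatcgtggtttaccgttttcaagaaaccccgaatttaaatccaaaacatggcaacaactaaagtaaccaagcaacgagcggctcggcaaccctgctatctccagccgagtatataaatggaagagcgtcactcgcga
mir-282 summit, chr3L:3250213-3250413: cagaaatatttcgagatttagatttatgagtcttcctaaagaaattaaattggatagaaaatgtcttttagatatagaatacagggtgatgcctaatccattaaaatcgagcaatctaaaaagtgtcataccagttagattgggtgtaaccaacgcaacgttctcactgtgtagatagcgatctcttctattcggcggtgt
mir-92a summit, chr3R:25646911-25647111: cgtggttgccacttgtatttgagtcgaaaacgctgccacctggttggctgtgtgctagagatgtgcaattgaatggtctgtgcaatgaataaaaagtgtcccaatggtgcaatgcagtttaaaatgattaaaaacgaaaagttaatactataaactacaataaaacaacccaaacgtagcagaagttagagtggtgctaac
mir-9a summit, chr3L:19560733-19560933: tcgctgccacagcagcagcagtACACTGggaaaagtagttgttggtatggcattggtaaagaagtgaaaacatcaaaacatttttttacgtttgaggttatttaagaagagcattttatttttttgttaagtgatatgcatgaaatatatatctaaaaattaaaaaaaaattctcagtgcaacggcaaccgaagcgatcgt
mir-ban summit, chr3L:640739-640939: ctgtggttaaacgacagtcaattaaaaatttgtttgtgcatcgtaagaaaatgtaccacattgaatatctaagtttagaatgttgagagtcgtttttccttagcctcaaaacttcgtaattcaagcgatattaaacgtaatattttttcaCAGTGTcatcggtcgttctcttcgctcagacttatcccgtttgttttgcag
mir-4943 summit, chr2L:16533170-16533370: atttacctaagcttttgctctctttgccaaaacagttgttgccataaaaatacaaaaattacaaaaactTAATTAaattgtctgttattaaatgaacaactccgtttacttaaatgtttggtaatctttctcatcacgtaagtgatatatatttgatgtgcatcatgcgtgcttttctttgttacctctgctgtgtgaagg
mir-2b-2 summit, chr2L:19572826-19573026: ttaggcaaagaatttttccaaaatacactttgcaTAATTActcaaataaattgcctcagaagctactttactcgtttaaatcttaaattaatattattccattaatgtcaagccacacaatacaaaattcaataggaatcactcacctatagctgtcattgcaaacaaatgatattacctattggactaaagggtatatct

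Non-coding hosts are annotated long non-coding or antisense RNAs that hold a hairpin on their own strand. The highest peak near any member was at *lncRNA:CR31044*, host of *mir-279* and *mir-996* on chr3R, which lie between 29215585 and 29217280. *mir-279* is known for keeping carbon dioxide sensing neurons from forming in the wrong place, and *mir-996* shares its seed GACUAGA. The peak ranked 23 in the optimal list and 24, 25 and 20 in replicates 1, 2 and 3. Its summit lay 108 bp upstream of the host's annotated start, 1131 bp upstream of *mir-279* and 5718 bp from the nearest coding start. All 3 replicates gave nearly the same rank. *mir-286*, the third member with that seed, was not called.

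The peak near *mir-282* ranked 252, with replicate ranks of 453, 193 and 255. Its summit lay 709 bp upstream of the hairpin and inside *lncRNA:CR43626*, 281 bp upstream of the nearest of that host's 3 annotated starts. *mir-8*, the fly member of the family of mammalian miR-200 and a regulator of growth, had 2 summits, 1 near each annotated start of *lncRNA:CR43650*. The farther summit ranked 901 (663, 1051 and 1387 in the replicates) and lay 670 bp upstream of the first start. The nearer summit ranked 1230 (672, 2904 and 857) and lay 67 bp upstream of the second start. Both were matched in all 3 replicates.

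*mir-375*, whose mammalian counterpart is known from pancreatic islet cells, had 4 summits in reach. The highest ranked 1676 (1779, 1901 and 1807) and lay 533 bp upstream of the start of its host *lncRNA:CR45345*. Of the other 3, those ranked 2124 and 2666 lay 9 and 29 bp from the starts of *CG4291* and *CG13949*, and that ranked 3299 lay 789 bp past the 5′ end of the hairpin. *mir-14*, a repressor of cell death and a regulator of fat metabolism, had a summit ranked 1784, 44 bp inside the start of *lncRNA:CR43651*. That peak ranked 923, 1762 and 4288 in the replicates, so that replicate 3 did not match it. The *mir-281-1* and *mir-281-2* pair had a summit ranked 1901, 386 bp upstream of the start of the non-coding host *asRNA:CR46194* and 807 bp upstream of a start of the coding host *Oda*.

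At *mir-9a* and bantam the summit lay more than 1 kb from a start of the non-coding host. *mir-9a* is known for keeping the number of sensory organ precursors constant by repressing *senseless*. Its peak ranked 307, with 206, 444 and 305 in the replicates. The summit lay 4298 bp upstream of the hairpin and 1803 bp upstream of the start of the host *lncRNA:CR45916*, within an exon of a different RNA gene, *lncRNA:CR44676*, 357 bp from that gene's start. Bantam promotes growth and represses the cell death gene *hid*. Its peak ranked 1654, with 2497, 2249 and 1177 in the replicates. The summit lay 1369 bp upstream of the hairpin and 1125 bp past the nearest annotated start of *lncRNA:CR43334*, inside an exon of that host. Both peaks were matched in all 3 replicates, and both windows held 1 ACACTG.

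**Figure D4:**
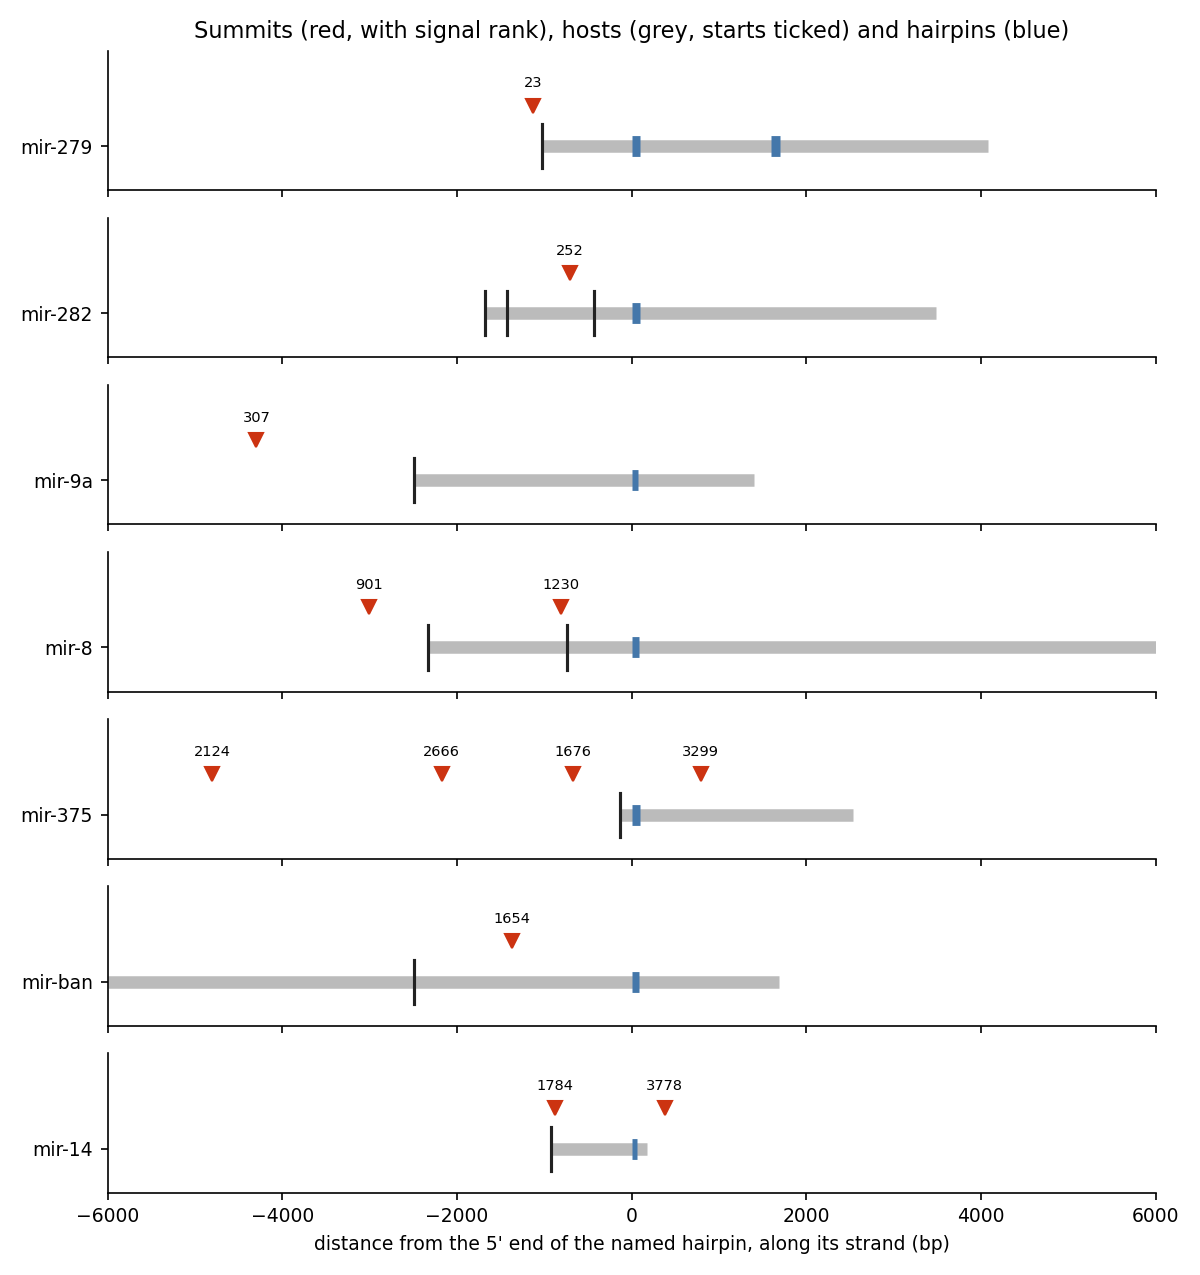
Maps of 7 loci with a non-coding host show summits (red, with signal rank), the host (grey, annotated starts ticked) and hairpins (blue) by distance in bp from the 5′ end of the named hairpin, along its strand. At *mir-279*, *mir-282*, *mir-8*, *mir-375* and *mir-14* a summit lies within 1 kb of a host start, while the *mir-9a* summit lies 1803 bp upstream of the start and the bantam summit 1125 bp past it.

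Over all hosts, 7 of 37 non-coding hosts had a summit within 1 kb of a start, or 18.9%. Among all 3001 non-coding RNA genes other than microRNA genes, these hosts included, the share was 7.73%. In the replicates' own lists the hosts numbered 9, 7 and 6, or 19.8% ± 4.13. The seventh was *lncRNA:Hsromega*, the heat shock RNA that holds *mir-4951*. Its peak ranked 842 (629, 519 and 1207), 243 bp past the start, with the hairpin farther away than the 5 kb window. Of the coding hosts, 49 of 128 had a called start, or 38.3%, against 22.2% of all 13945 protein-coding genes, hosts included. The replicate lists gave 50, 49 and 44 coding hosts, or 37.2% ± 2.51. A gene with several annotated starts had more chances to be called, and the number of starts was not matched between hosts and other genes.

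The highest peaks at coding hosts were often far from the hairpin. *spi*, which encodes an epidermal growth factor receptor ligand, holds *mir-2a-1*, *mir-2a-2* and *mir-2b-2*. Its highest start peak ranked 86 (89, 92 and 89), 187 bp upstream of a start but outside the reach of the hairpins. The cluster was called through another *spi* peak, which ranked 1568 (2089, 1770 and 1532), 316 bp upstream of a second start and 2662 bp upstream of *mir-2b-2*. *Btk*, a tyrosine kinase gene that holds *mir-2b-1*, had a start peak ranked 161 (315, 131 and 155), and *PAPLA1*, host of *mir-4984*, one ranked 190 (233, 204 and 189). Neither *mir-2b-1* nor *mir-4984* was called. In all, 24 of the 56 hosts with a called start held no called member. In these 24 the farthest hairpin lay a median of 19285 bp from the gene start, against 3244 bp in the other 32. The distance was taken from the outermost start of the host, not from the start with the peak. A summit at a start reaches only hairpins within the 5 kb window, so that the window itself goes far to set these medians.

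Among coding hosts whose peak was also in reach of the hairpin, *jigr1* ranked first. It holds *mir-92a* in an intron, while *mir-92b* overlaps exons of both *jigr1* and the non-coding *lncRNA:CR45917*, and both microRNAs are known from work on neural stem cells. The peak ranked 280 (279, 316 and 275), 235 bp upstream of a *jigr1* start, 505 bp past the 5′ end of *mir-92a* and upstream of *mir-92b*. It was followed by *CG5953*, host of *mir-4943*, with a peak ranked 361 (447, 417 and 276), 393 bp upstream of a start. *MRP*, host of *mir-9382*, had a peak ranked 546 (598, 413 and 686), 229 bp upstream of a start, with a start of *Pih1D1* slightly nearer at 201 bp. *CG12241*, host of *mir-9383*, had a peak ranked 631 (571, 671 and 653). *SREBP*, the regulator of lipid synthesis, holds *mir-33* in an intron, as its homologues do in mammals. Its peaks ranked 1078 and 2145, with summits 519 and 736 bp past a start, and both overlapped the same replicate peaks, ranked 1460, 578 and 1620.

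Other host intron members were *mir-3644* in *Kpc1* (rank 773), *mir-4982* in *Hs3st-A* (939) and *mir-1003* in *CG6695* (1538), each with a summit within 500 bp of a host start. At *Kpc1* a start of another gene, *CG42542*, was nearer, at 96 bp against 292 bp. In *Mob2* and *Tlk* the summits near *mir-4968* (rank 697) and *mir-4962* (rank 840) lay 1426 and 1577 bp from the nearest host start. Each had a lower summit in reach of the hairpin and nearer to a host start, ranked 3788 at 955 bp for *Mob2* and 1851 at 973 bp for *Tlk*. The highest start peak of *Mob2* was outside that reach. It ranked 643 (628, 588 and 627), 186 bp upstream of a start. *mir-308*, in an intron of the ribosomal protein gene *RpS23*, had a summit 1 bp from the start, ranked 2399 and matched in 2 replicates. All of these peaks were matched in 3 replicates except the *RpS23* one and the lower *Mob2* one, each matched in 2.

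At 11 loci the highest summit lay at the start of a coding gene that is no host of the member. *mir-4981* had a peak ranked 462, 643 bp from the start of *CG14762*, and *mir-4970* one ranked 505, 23 bp from the start of *CG12299*. *mir-2283* lies 4398 bp from a peak ranked 534 that lay 59 bp from the start of *Ras85D*, the fly Ras gene, and it had a lower peak, ranked 2501, 2 bp from the start of its hosts *Kdm3* and *CG8176*. *mir-4957*, antisense to the topoisomerase gene *Top1*, had a peak ranked 726 at the *Top1* start. The 7-gene cluster *mir-310* to *mir-992* is intergenic, and its only summit ranked 2492 (3196, 2227 and 3606), 78 bp upstream of *HnRNP-K* and 2068 bp upstream of *mir-992*. *HnRNP-K* is the host of *mir-7*, a regulator of photoreceptor determination, and *mir-7* itself was not called. Of the 12 called intergenic members, 11 had their highest summit at the start of such a neighbour, the 7 of this cluster among them.

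Another pair of clusters had their highest summits away from any of these starts. *mir-317*, *mir-277* and *mir-34* form a cluster in which *mir-277* is known for control of branched-chain amino acid breakdown and *mir-34* for protection in the ageing brain. A peak ranked 2164 (1664, 3148 and 2116) lay 3373 bp upstream of *mir-317*, and one ranked 2207 (1569, 3136 and 2414) lay 1793 bp upstream of *mir-277*. The *mir-275* and *mir-305* pair had a peak ranked 1385 (727, 2628 and 1255), 4944 bp upstream of *mir-275* in an intron of *chm*. The highest peak of each of these loci was matched in 3 replicates.

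**Figure D5:**
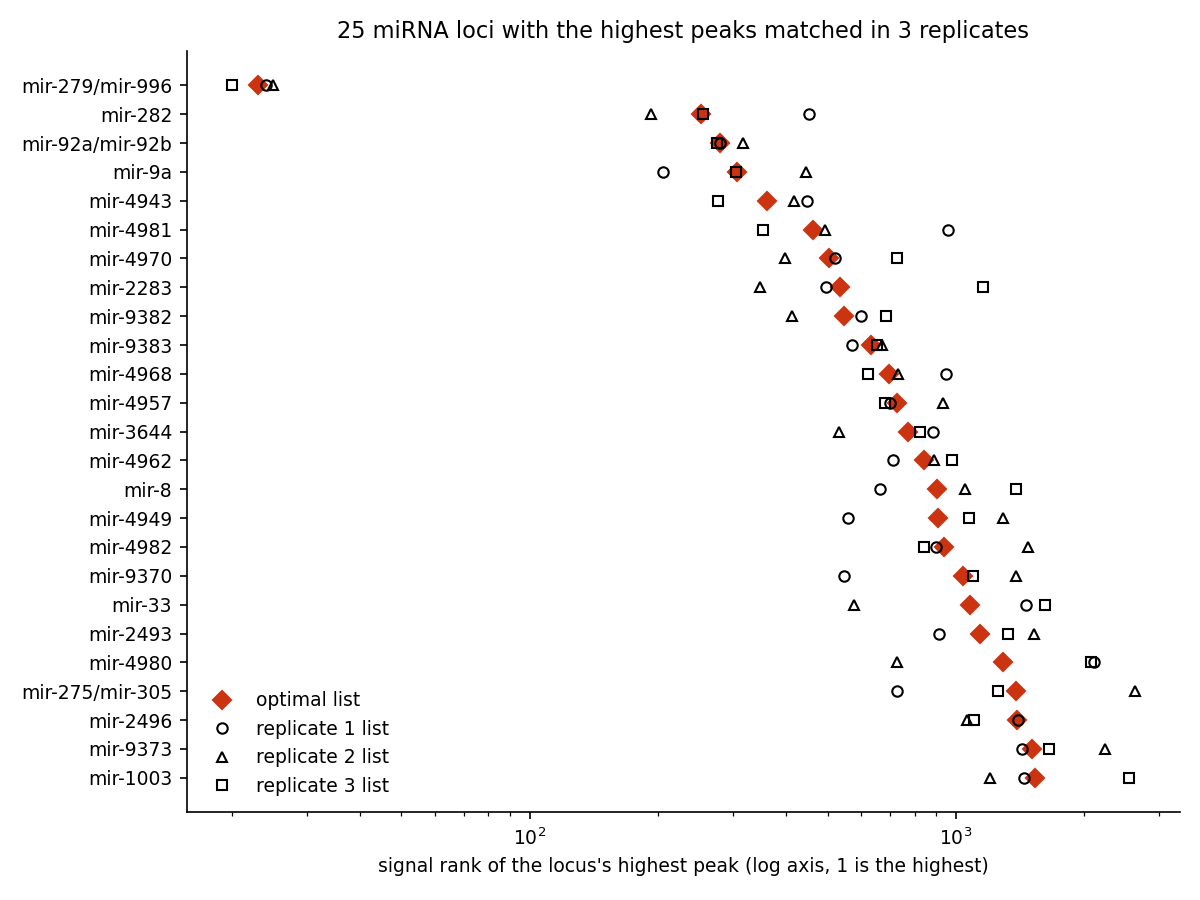
For the 25 loci with the highest peaks matched in all 3 replicates, the signal rank of the peak is shown on a log axis in the optimal list (red diamonds) and in each replicate list (open symbols). The *mir-279* and *mir-996* locus, at ranks 20 to 25, stands apart from the next locus, *mir-282*, at 193 to 453.

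Of 28 members listed by name as well studied, 12 were called (42.9%) and 16 were not. In the same window 23.8% of all 260 members were called, and 34.3% of all genes (29.0% with the window set on the gene start). Some of the 12 share a summit, such as *mir-279* and *mir-996*, so that these calls are not independent. Not called were *mir-1*, the muscle microRNA, *mir-124*, which is neuronal, and *mir-184*, known from the female germline. *mir-1* had its highest entry in the joint list of peaks and background at rank 9721, *mir-124* at 15582 and *mir-184* at 10747. *mir-100* and *mir-125*, which share a primary transcript with *let-7* that is known for its rise at metamorphosis, had theirs at 19052, as had *let-7*. *mir-309*, in the cluster known for clearing maternal messenger RNA in the early embryo, had its own at 26814. *mir-iab-4* and *mir-iab-8*, which lie among the Hox genes of the bithorax complex and repress them, had theirs at 21810, and their nearest optimal summits were 57398 and 57465 bp away. *mir-7* came at 6637, *mir-13b-2* at 5931, *mir-263b* at 6693, *mir-11* at 9289 and *mir-276a* at 9992, while *mir-278*, *mir-307a* and *mir-263a* (annotated as *mir-bft*) had no entry in reach.

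Over all 198 members that were not called, 124 had an entry of the joint list in reach, at ranks from 3946 and with a median of 12584 among 30000, and 74 had none. Among them 1 member, *mir-967* in an intron of *bun*, was called in every replicate's own list, at ranks of 3866, 3796 and 3533, and it stood at 4221 in the joint list. The gap to the 3866 of the optimal list was small there, and *mir-967* was named after its values had been seen.

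By chromosome arm, called members numbered 14 of 56 on 2L, 18 of 55 on 2R, 6 of 31 on 3L, 14 of 58 on 3R and 10 of 58 on X. Neither of the 2 members on arm 4 was called. Counted by locus, 11 of 41 were called on 2L, 11 of 41 on 2R, 6 of 31 on 3L, 10 of 49 on 3R and 10 of 39 on X, since 7 of the called members on 2R share the summit of the *mir-310* cluster. All annotated genes were called at 32.5% on 2L, 34.3% on 2R, 33.6% on 3L, 37.0% on 3R, 18.6% on 4 and 33.9% on X.

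Seeds were compared across the 481 mature sequences of the members, which held 426 different seeds. Of these, 33 were shared by 2 or more members, and 12 of the 33 had a called member. For AUUGCAC, the seed of *mir-92a*, *mir-92b*, *mir-310*, *mir-311*, *mir-312* and *mir-313*, all 6 members were called, through 1 summit at each of 2 loci. For AUCACAG, the largest group, with 14 members at 7 loci, 4 were called, namely the 3 in *spi* and *mir-308*. Of 3 members with the *mir-9a* seed CUUUGGU only *mir-9a* was called. Members of 1 cluster share a summit, so that these counts are not independent.

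Around the 65 summits, TAATTA was found within 100 bp of 15, or 23.1%, against 15.1% of the 3866 optimal summits. ACACTG was within 100 bp of 7 (10.8%, against 20.7%) and GAGAGA of 1 (1.54%, against 10.7%). ATCGAT was near 8 (12.3%, against 13.1%), and the longer TATCGATA, which contains it, near 4 (6.15%, against 5.38%). All were sought on both strands, and TAATTA and both words with ATCGAT read the same on either strand. The mean GC content of the windows was 38.0% at these summits and 37.5% over the list. Of the words searched, TAATTA was near a *mir-8* summit (rank 901), the *mir-33* summit ranked 2145 and the *spi* summit printed above. No match says only that these letters are not in the window.

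The proteins that make and use microRNAs were considered through a list of 28 genes. It includes 4 genes of the small interfering RNA branch for comparison. Of the 28, 13 had a summit within 1 kb of a start, or 46.4%, against 22.2% of protein-coding genes. The replicate lists gave 12, 14 and 13. Here too the number of annotated starts, each of which can be called, was not matched between the listed genes and other genes. Of 9 genes for processing, 3 were called. These were *Ars2* (rank 2629), which links the cap-binding complex to Drosha, *Cbp20* (1940), a subunit of that complex, and *Ranbp21* (1488), the exportin of hairpins. *drosha*, its partner *pasha*, *Cbp80*, *Dcr-1*, its partner *loqs* and the debranching enzyme gene *ldbr* were not called.

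Of the genes for loading and trimming, *AGO1*, the main microRNA Argonaute, had a peak ranked 711 (675, 756 and 753), *Tailor*, which adds uridines to hairpins, one ranked 1743, and *Nbr*, an exonuclease that shortens mature microRNAs, one ranked 3043. Of 12 genes for silencing, 6 were called. They were *gw* (1457), the GW182 protein that binds Argonaute, the deadenylase genes *twin* (1146) and *Pop2* (820), *pAbp* (730), the decapping gene *DCP2* (2108) and *tral* (362). *Not1*, *Not3*, *me31B*, *Patr-1*, *DCP1* and *Ge-1* were not. Of 4 genes of the small interfering RNA branch only *r2d2* was called (354), and *Dcr-2*, *AGO2* and *Hen1* were not. The *twin* peak was matched in 2 replicates and ranked 7344 in replicate 1, and the other 12 were matched in 3.

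At 7 of these 13 genes the summit lay nearer to the start of another coding gene. These neighbours were *CG33155* and *mRpL53* for *AGO1*, *Noc2* for *Nbr*, *alphaTub84B* for *Tailor*, *CG6928* for *Pop2*, *dbo* for *DCP2*, *sti* for *tral* and *Herp* for *r2d2*. For *Ars2*, *Cbp20*, *Ranbp21*, *gw*, *twin* and *pAbp* the gene's own start was the nearest.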

How the data were processed

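Peak lists on dm6 from ChIP-seq of 3 biological replicates were used. The deposited notes say that the authors made a replicate list from its own alignments with a control, the joint list from all replicates together, and the optimal list from the others. No source used here names the aligner, the caller or the thresholding settings, and read depth is unknown. The signal column deposited by the authors has no stated scale and served only to rank peaks within a list. By the authors' −log10 q values as deposited, all 3866 optimal peaks and 3527, 4276 and 4599 peaks of replicates 1, 2 and 3 had q-values under 0.01. The optimal list equals the 3866 highest peaks of the joint list. Lists on dm3 were not used, as no annotation of that build was at hand.

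Summits were placed on the Ensembl release 115 annotation of Release 6, with Python 3.11.15 and numpy 2.4.6. RefSeq sequence came from the same assembly, with equal arm lengths. The span of a host holds the whole hairpin on its strand, clusters join gaps up to 10 kb, and window calls and classes were checked on simulated data. Members, gene lists and sequence words were chosen with earlier results of these data known, so that no count supports the choice. Bantam, well-studied members whether called or not, hosts with the 5 highest start peaks and all pathway genes were named. Loci whose highest peak was matched in all 3 replicates (up to 25 loci) and hosts of called members were named only in part. Of those loci, *mir-4949* (rank 910), *mir-9370* (1042), *mir-2493* (1139), *mir-4980* (1294), *mir-2496* (1394) and *mir-9373* (1513) were not described. Hosts of called members that were not described include *ATPsynC*, *Amun* and *Sxl*. Further members were named after their values were seen. Alternatives changed the window, the summit rule, the signal threshold, the replicate match, the cluster distance and the host definition.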

Additional observations from a re-analysis of the deposited data

How the results depend on the processing

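With 2 kb upstream, 25 members (9.62%), 10 in a host intron, 3 outside any host and 23 loci were called. With 10 kb upstream these counts were 98 (37.7%), 37, 23 and 75. With 1 kb to each side they were 18 (6.92%), 8, 3 and 17. Of all genes, with their bodies in the window, 26.9%, 43.8% and 24.3% were called at these settings, in the same order. The 1933 optimal peaks of higher signal gave 37 members (14.2%), 15 in a host intron, 4 outside any host and 3750 of all genes (20.6%). Without summits within 500 bp of a coding start, 28 members, 8 in a host intron, 3 outside any host and 24 loci were called. At that setting the share of members, 10.8%, was near that of all genes, 11.1% (2022 genes). Counting only protein-coding hosts put 124 members outside a host, 26 of them called. With the window used for microRNA genes, 95 of 165 hosts (57.6%) were called in place of 56. That window held a summit for 37.7% of protein-coding genes and 22.9% of other non-coding RNA genes. It includes the gene body, and gene length was not matched between hosts and other genes. Each replicate was also ignored in turn by keeping only the optimal peaks matched in both of the others. The optimal list itself was still the one made from all 3 replicates. This filter gave 51 to 52 members, 18 to 20 in a host intron, 12 to 13 outside any host and 38 to 39 loci. It gave 4770 to 5133 of all genes, 45 to 49 hosts and 12 to 13 pathway genes. All other settings stayed within 1.5 times the counts above. The window set on the gene start was added after seeing the data. No paired analysis was possible because the series holds 1 group. Peak lists without read counts give no interval on a rank, and a member without a summit is not shown to lack binding. Neighbouring genes share summits, and primary transcript starts are known here only as annotated.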
